A study of Mus musculus with 6 samples.

Results

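The set described here holds 10 genes: the PRPP synthetases Prps1 and Prps2, the synthetase-associated proteins Prpsap1 and Prpsap2, and the de novo purine synthesis enzymes Ppat, Gart, Pfas, Paics, Adsl and Atic. They were taken by gene symbol from a table of 28500 genes, and all 10 were found and passed the filter on low counts that left 17900 genes for testing. The set was selected on the lower Prps2 counts in Ube2f_dIEC mice, so the values of Prps2 in that contrast, adjusted p included, describe how it was chosen and are no test of it. The other 9 genes stand in the set by their place in the pathway. RNA sequencing covered the colon epithelium of 3 Ube2f_dIEC mice (labelled KO, Ube2f deleted in intestinal epithelial cells) and 3 Ube2f_flox mice (labelled WT), with no DSS or other drug, all labelled as males of 8 weeks. Cells had been released from opened colons with EDTA and strained, a preparation in which other mucosal cells can remain, and the labels do not name the driver of the deletion.

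PRPP synthetase joins ribose 5-phosphate and ATP to give PRPP, the sugar phosphate on which purine, pyrimidine and NAD nucleotides are built. PPAT commits PRPP to purines, and GART, PFAS, PAICS, ADSL and ATIC carry the ring to IMP, the precursor of AMP and GMP. Dividing cells, such as those of the colonic crypt, draw on this route, while resting cells lean more on salvage of ready-made bases. PRPS1 and PRPS2 are closely related catalytic proteins and differ in how strongly nucleotides inhibit them. PRPSAP1 and PRPSAP2 are related proteins that bind the synthetases and are described as restraining them.

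The unit of level is CPM, that is, counts relative to a TMM-adjusted library size. A log2 fold change sets Ube2f_dIEC over Ube2f_flox and comes with a standard error (SE). Library totals were 55971362, 72422108 and 76483134 counts for Ube2f_dIEC and 77524693, 71240407 and 63247380 counts for Ube2f_flox replicates 1 to 3. The deleted gene, Ube2f, was at 17.155, 18.002 and 21.004 CPM in Ube2f_dIEC, against 34.0, 42.1 and 32.1 CPM in Ube2f_flox. Although labelled male, Ube2f_dIEC replicate 1 had Xist, made from an inactive X chromosome, at 494 CPM and 0 counts of the Y-linked genes Ddx3y, Eif2s3y, Kdm5d and Uty, while the other 5 libraries had at most 1.33 CPM of Xist. Prps1 and Prps2 are both X-linked, so their values are also given without that library. Ube2f_flox replicate 1 correlated better with Ube2f_dIEC replicates 2 and 3 (Pearson r over genes 0.976 and 0.975) than with the other Ube2f_flox libraries (0.972 and 0.966). The same held for Ube2f_flox replicate 2 (0.975 and 0.977, against 0.972 and 0.974), so this does not single out replicate 1. Epithelial markers (Epcam, Krt8, Vil1, Cdx2 and 6 others) summed to 22425 to 27282 CPM in Ube2f_dIEC and 23392 to 28703 CPM in Ube2f_flox. All 14 leukocyte markers summed to 61.1 to 65.5 CPM in Ube2f_dIEC and 48.8 to 168.8 CPM in Ube2f_flox, the highest being Ube2f_flox replicate 3, and 11 stromal, endothelial and muscle markers stayed under 10 CPM in sum in every library (3.67 to 9.17 CPM). Fewer cells of a type and less RNA per cell cannot be told apart in such bulk libraries.

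The promoters of the paralog pair, of the neighbours Ppat and Paics, and of Atic are shown because these genes carry the comparison and 2 of them hold a match to the E-box. Each runs from 250 bases before to 50 bases after the RefSeq start on GRCm38.p6, and capitals mark the E-box CACGTG, the letters bound by MYC and related factors.
Prps2, chrX:167382700-167382999, minus strand: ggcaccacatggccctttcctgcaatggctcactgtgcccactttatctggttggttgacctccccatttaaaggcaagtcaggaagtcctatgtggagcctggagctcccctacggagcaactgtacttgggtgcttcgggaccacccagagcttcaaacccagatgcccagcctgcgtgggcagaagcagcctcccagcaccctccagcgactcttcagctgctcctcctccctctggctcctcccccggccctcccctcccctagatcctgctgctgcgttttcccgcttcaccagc
Prps1, chrX:140456353-140456652, plus strand: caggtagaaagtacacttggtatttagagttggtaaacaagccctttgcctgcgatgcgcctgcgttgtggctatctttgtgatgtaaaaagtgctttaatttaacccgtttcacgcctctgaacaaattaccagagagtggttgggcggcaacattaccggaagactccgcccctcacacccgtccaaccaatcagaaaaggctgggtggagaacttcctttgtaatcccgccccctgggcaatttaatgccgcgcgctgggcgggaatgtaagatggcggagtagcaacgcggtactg
Ppat, chr5:76951529-76951828, minus strand: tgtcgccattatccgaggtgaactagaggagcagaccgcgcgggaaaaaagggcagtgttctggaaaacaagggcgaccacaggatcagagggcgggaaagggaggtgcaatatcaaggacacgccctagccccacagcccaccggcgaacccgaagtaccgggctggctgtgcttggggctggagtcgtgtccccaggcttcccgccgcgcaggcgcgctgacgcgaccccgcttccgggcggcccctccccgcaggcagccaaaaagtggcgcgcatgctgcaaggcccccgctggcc
Paics, chr5:76951052-76951351, plus strand: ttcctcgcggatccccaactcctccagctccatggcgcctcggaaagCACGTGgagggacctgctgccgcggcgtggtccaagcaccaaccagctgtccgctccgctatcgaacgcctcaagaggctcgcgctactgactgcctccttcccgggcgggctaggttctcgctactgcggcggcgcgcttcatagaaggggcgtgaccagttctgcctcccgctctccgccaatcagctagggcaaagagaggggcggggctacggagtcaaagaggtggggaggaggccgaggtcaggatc
Atic, chr1:71556906-71557205, plus strand: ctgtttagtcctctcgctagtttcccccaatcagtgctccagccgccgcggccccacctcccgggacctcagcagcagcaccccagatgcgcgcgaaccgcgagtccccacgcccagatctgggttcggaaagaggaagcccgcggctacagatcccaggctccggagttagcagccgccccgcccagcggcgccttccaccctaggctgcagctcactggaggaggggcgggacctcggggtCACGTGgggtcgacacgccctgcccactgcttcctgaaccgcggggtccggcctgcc
Promoters were in the RefSeq table for 9 of the 10 genes, in 10 windows. The E-box, which reads the same on both strands, was found in the windows of Paics (first base at -203 from the start) and Atic (at -7), against 7.15% of all 32851 promoters of that length. The core of the NRF1 motif, searched on both strands, was found in 0 of the 10 windows, against 0.971% of all promoters. The windows were mostly rich in G and C, with 61.0% in Prps2, 51.3% in Prps1, 66.7% in Ppat, 65.7% in Paics and 69.7% in Atic, beside a median of 52.7% over all promoters. A match describes these letters only, and binding was not measured.

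Prps2 (ENSMUSG00000025742; GRCm38 chromosome X, 167346322 to 167382749, minus strand) was the synthetase gene that was lower. It was at 22.6, 24.0 and 25.0 CPM in Ube2f_dIEC, against 53.9, 46.0 and 41.1 CPM in Ube2f_flox. The groups did not overlap, and the spread was wider in Ube2f_flox, where replicate 1 was highest. The log2 fold change was -0.98 (SE 0.11), which is 0.508 times the Ube2f_flox level, and the absolute change was larger than that of 94.3% of all genes tested. The value by which it had been singled out was a Benjamini-Hochberg adjusted p of 0.0455 over all genes in the edgeR quasi-likelihood fit. Across the 16 alternatives the log2 fold change stayed between -1.07 and -0.71, and the adjusted p was under 0.05 in 4 of them. Without Ube2f_dIEC replicate 1 it was -0.94 (SE 0.13), and the level of that library, 22.6 CPM, lay close to those of the other Ube2f_dIEC libraries.

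**Figure D1:**
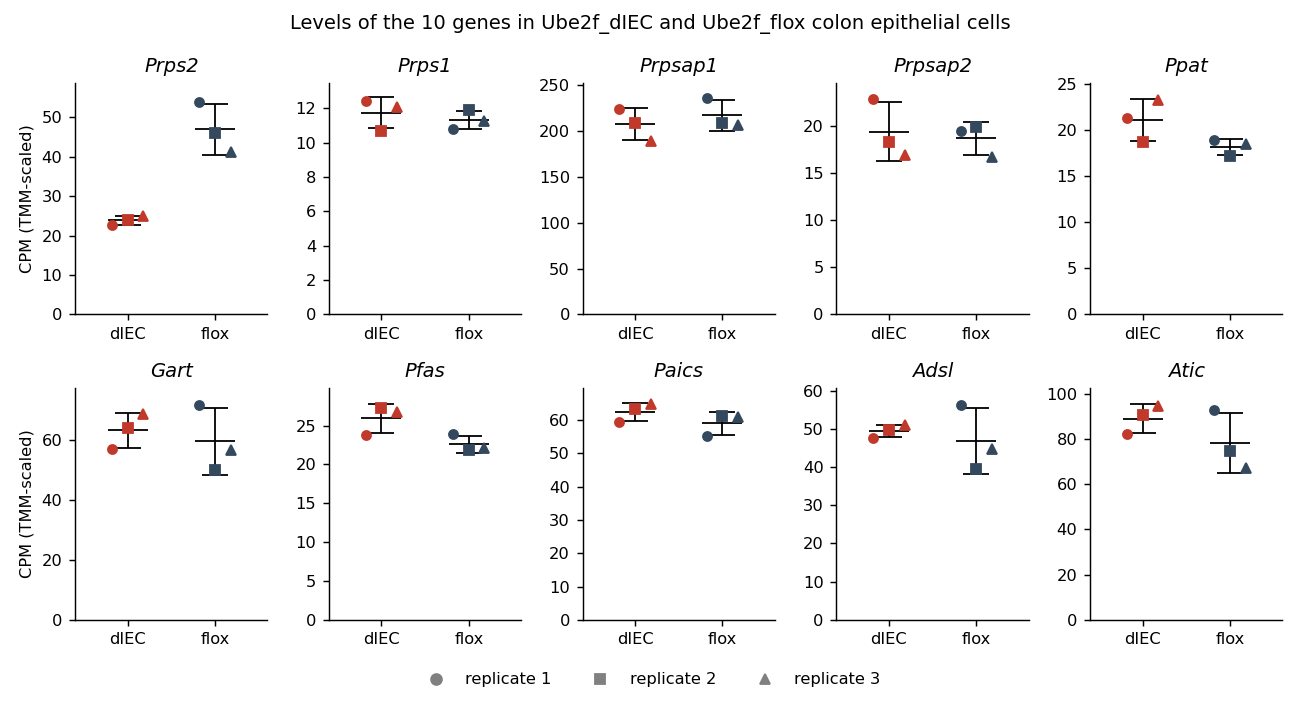
Levels of the 10 genes in CPM (TMM-scaled, linear axes from 0) for Ube2f_dIEC (red, left) and Ube2f_flox (dark, right); symbols are the 3 replicates, bars the mean and SD. The groups of Prps2 (22.6 to 25.0 CPM in Ube2f_dIEC, 41.1 to 53.9 CPM in Ube2f_flox) are apart, and those of the other 9 genes overlap.

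Prps1, the paralog, did not differ between the genotypes beyond its spread. Prps1 (ENSMUSG00000031432; GRCm38 chromosome X, 140456613 to 140476140, plus strand) was at 12.4, 10.7 and 12.1 CPM in Ube2f_dIEC, against 10.8, 11.9 and 11.2 CPM in Ube2f_flox. The values interleave, and the lowest of all 6 is Ube2f_dIEC replicate 2. The log2 fold change was 0.05 (SE 0.12) with a 95% interval of -0.22 to 0.32 and an adjusted p of 0.937 (edgeR, Benjamini-Hochberg). Without Ube2f_dIEC replicate 1 it was 0.01 (SE 0.14). Without that library and Ube2f_flox replicate 1 together it was -0.02 (SE 0.14), so its sign was not stable.

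A further gene of the synthetase family, listed here among its retrocopies, bears on the comparison, and whether its product is an active enzyme was not measured. Prps1l3 (ENSMUSG00000079104; GRCm38 chromosome 12, 57230412 to 57239882), annotated as a Prps1-like protein-coding gene, is no member of the set. It was at 21.5, 23.8 and 23.9 CPM in Ube2f_dIEC, against 24.1, 21.8 and 21.7 CPM in Ube2f_flox. These groups overlap as well, with a log2 fold change of 0.03 (SE 0.09), a 95% interval of -0.18 to 0.25 and an adjusted p of 0.952 (edgeR, Benjamini-Hochberg). Its counts were 1.73 to 2.22 times those of Prps1 in Ube2f_dIEC and 1.84 to 2.22 times those of Prps1 in Ube2f_flox. Of the 100-base windows in the annotated Prps1 transcripts, 3.43% occur exactly in Prps1l3, and 9.93% of the 50-base windows do, so part of the reads could be assigned to either gene. Prps1l3 also shares 5.37% of its 100-base and 8.20% of its 50-base windows with Mipol1. Part of the Prps1l3 counts, and of the sums below that hold them, could therefore come from Mipol1. With the counts of Prps1 and Prps1l3 added together, an alternative chosen after their values were seen, the log2 fold change was 0.04 (SE 0.07), with a 95% interval of -0.13 to 0.21 and an edgeR adjusted p of 0.918. Prps1l1, a Prps1-like gene known from testis, had 9 to 24 counts per library. Of the 100-base windows of Prps2, 0 occur in another annotated gene.

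Per length, Prps2 was the more abundant of the paralog pair in Ube2f_flox and level with Prps1 in Ube2f_dIEC. In the deposited FPKM values, which are scaled by gene length, Prps2 was at 5.65, 5.98 and 6.09 in Ube2f_dIEC, against 12.5, 10.3 and 8.53 in Ube2f_flox. Prps1 was at 6.02, 5.17 and 5.71 FPKM in Ube2f_dIEC, against 4.88, 5.16 and 4.53 FPKM in Ube2f_flox. Prps2 made up 48.4, 53.6 and 51.6% of the summed FPKM of the pair in Ube2f_dIEC, against 72.0, 66.6 and 65.3% in Ube2f_flox. Every Ube2f_dIEC share lay below every Ube2f_flox share, as a description, since Prps2 enters it.

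On a scale of CPM per kilobase of exon length, the mean of Prps2 was 6.17 in Ube2f_dIEC and 12.1 in Ube2f_flox, a difference of 5.96. Prps1 averaged 5.88 in Ube2f_dIEC and 5.68 in Ube2f_flox on that scale, and Prps1l3 averaged 13.4 in Ube2f_dIEC and 13.1 in Ube2f_flox. To make up the difference by itself, Prps1 would have had to be higher by 1.04 on the log2 scale, which lies above the 95% interval of its fold change (upper bound 0.32). Prps1 and Prps1l3 together would have had to be higher by 0.40, and the upper bound for their added counts was 0.21. The scales differ, since the 0.40 is per kilobase and the bound is for counts added without length scaling. Neither needed rise carries the error of the Prps2 difference. Both rest on that difference, on which the set was selected, so these comparisons are a description and no test. On the scale of CPM per kilobase, the sum of the 3 genes was 24.6, 25.4 and 26.4 in Ube2f_dIEC, against 33.3, 30.5 and 28.9 in Ube2f_flox. In the deposited FPKM values, which carry no TMM factor, the groups of that sum overlap. It was 23.8, 24.5 and 24.9 FPKM in Ube2f_dIEC, against 30.0, 26.5 and 23.2 FPKM in Ube2f_flox. The sums hold Prps2, so their separation in CPM per kilobase restates its lower level and is a description. In CPM, Prps1 and Prps1l3 each overlap between the genotypes. Enzyme amount and PRPP were not measured.

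**Figure D2:**
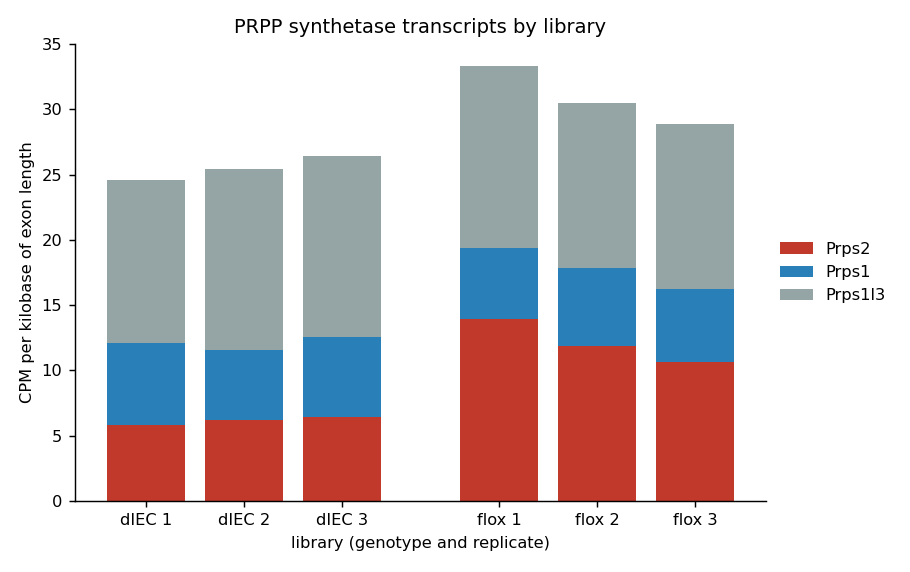
Stacked levels of Prps2 (red), Prps1 (blue) and Prps1l3 (grey) in CPM per kilobase of exon length for each library, Ube2f_dIEC left of Ube2f_flox. The red part is 5.84 to 6.46 in Ube2f_dIEC and 10.6 to 13.9 in Ube2f_flox, and the sum of the 3 parts is 24.6 to 26.4 in Ube2f_dIEC and 28.9 to 33.3 in Ube2f_flox.

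The synthetase-associated proteins were at like levels in both genotypes. Prpsap1 (ENSMUSG00000015869; GRCm38 chromosome 11, 116470845 to 116494202) was at 224, 208 and 189 CPM in Ube2f_dIEC, against 236, 209 and 206 CPM in Ube2f_flox. Prpsap2 (ENSMUSG00000020528; chromosome 11, 61729650 to 61762088) was at 22.8, 18.3 and 16.9 CPM in Ube2f_dIEC, against 19.4, 19.9 and 16.7 CPM in Ube2f_flox. Both pairs of groups overlap. The log2 fold changes were -0.07 (SE 0.09) for Prpsap1 and 0.05 (SE 0.14) for Prpsap2, with adjusted p of 0.883 and 0.951 (edgeR quasi-likelihood, Benjamini-Hochberg). The sign of each is not stable: with library totals in place of TMM Prpsap1 was at 0.09, and without Ube2f_dIEC replicate 1 Prpsap2 was at -0.08. A processed pseudogene, Gm13651, holds 9.32% of the 100-base and 27.3% of the 50-base windows of Prpsap2 and had 2 to 31 counts per library, whereas Prpsap2 had 945 to 1486.

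None of the 6 genes that carry PRPP to IMP passed the test, and all had log2 fold changes slightly above 0. Their values ran from 0.08 to 0.22 with a median of 0.14, beside a median of 0.00 over all genes tested, of which 50% had a positive value. By edgeR 0 of the 9 genes other than Prps2 were called, where 0.0447% of all genes were called (0.0223% lower and 0.0223% higher). Prps2 is left out of that count because its call in this contrast chose the set. Of the 9 other genes 0 had groups that did not overlap, where 7.26% of all genes did not overlap with higher and 6.9% with lower values in Ube2f_dIEC. DESeq2 also called 0 of these 9, where it called 1.65% of all genes with an adjusted p. At an unadjusted p of 0.05, 0 of these 9 passed in edgeR, where 8.18% of all genes did. With 3 mice a genotype the SEs of the 6 enzyme genes were 0.08 to 0.14. The absence of a call therefore does not exclude a change of the size of the median, and the power to detect one was not computed.

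Ppat (ENSMUSG00000029246; GRCm38 chromosome 5, 76913249 to 76951578, minus strand), the amidotransferase of the committed step, had the largest change of the 6. It was at 21.3, 18.7 and 23.2 CPM in Ube2f_dIEC, against 18.8, 17.2 and 18.4 CPM in Ube2f_flox, a log2 fold change of 0.22 (SE 0.11, 95% interval -0.04 to 0.47) with an edgeR adjusted p of 0.673. Ube2f_dIEC replicate 2 lies below Ube2f_flox replicate 1, so the groups overlap. Its neighbour Paics (ENSMUSG00000029247; chromosome 5, 76951307 to 76967509, plus strand), which encodes the carboxylase and SAICAR synthetase, is read in the opposite direction, and their annotated spans share 272 bases. Reads from that stretch cannot be told apart without strand. Paics was at 59.3, 63.3 and 64.7 CPM in Ube2f_dIEC, against 55.1, 61.1 and 60.8 CPM in Ube2f_flox, with a log2 fold change of 0.08 (SE 0.08, 95% interval -0.09 to 0.26). Ube2f_dIEC replicate 1 lies among the Ube2f_flox values.

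Pfas (ENSMUSG00000020899; GRCm38 chromosome 11, 68985697 to 69008460), the FGAM synthase, was at 23.7, 27.3 and 26.7 CPM in Ube2f_dIEC, against 23.9, 21.8 and 22.1 CPM in Ube2f_flox. Only Ube2f_dIEC replicate 1 and Ube2f_flox replicate 1 meet in this gene, and they differ by less than 1 CPM. The log2 fold change was 0.20 (SE 0.09, 95% interval -0.02 to 0.42), with an edgeR adjusted p of 0.643. Atic (ENSMUSG00000026192; chromosome 1, 71557150 to 71579631), which closes the ring to IMP, was at 82.1, 90.4 and 94.4 CPM in Ube2f_dIEC, against 92.8, 74.9 and 67.2 CPM in Ube2f_flox. Ube2f_flox replicate 1 lies among the Ube2f_dIEC values. Its log2 fold change was 0.18 (SE 0.12) with an edgeR adjusted p of 0.747. Without Ube2f_flox replicate 1 it was 0.32 (SE 0.09), and without both replicate 1 libraries 0.38 (SE 0.08), with an edgeR adjusted p of 0.0886, the lowest adjusted p that any of the 9 genes had in 145 alternative values.

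Gart (ENSMUSG00000022962; GRCm38 chromosome 16, 91621186 to 91646952), whose product carries out several early and middle steps, was at 56.9, 63.8 and 68.7 CPM in Ube2f_dIEC, against 71.7, 50.0 and 56.7 CPM in Ube2f_flox. Adsl (ENSMUSG00000022407; chromosome 15, 80948490 to 80970946), a lyase of this route and of the step to AMP, was at 47.7, 49.8 and 51.0 CPM in Ube2f_dIEC, against 56.4, 39.6 and 44.7 CPM in Ube2f_flox. In both genes Ube2f_flox replicate 1 was the highest and Ube2f_flox replicate 2 the lowest of all 6 libraries. The log2 fold changes were 0.09 (SE 0.14) for Gart and 0.08 (SE 0.13) for Adsl. Without Ube2f_flox replicate 2 both were at -0.03, and without Ube2f_flox replicate 1 they were 0.24 and 0.23. An antisense gene, Gm15964, covers part of Gart (11.5% of its 100-base windows) and had 26 to 49 counts per library.

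**Figure D3:**
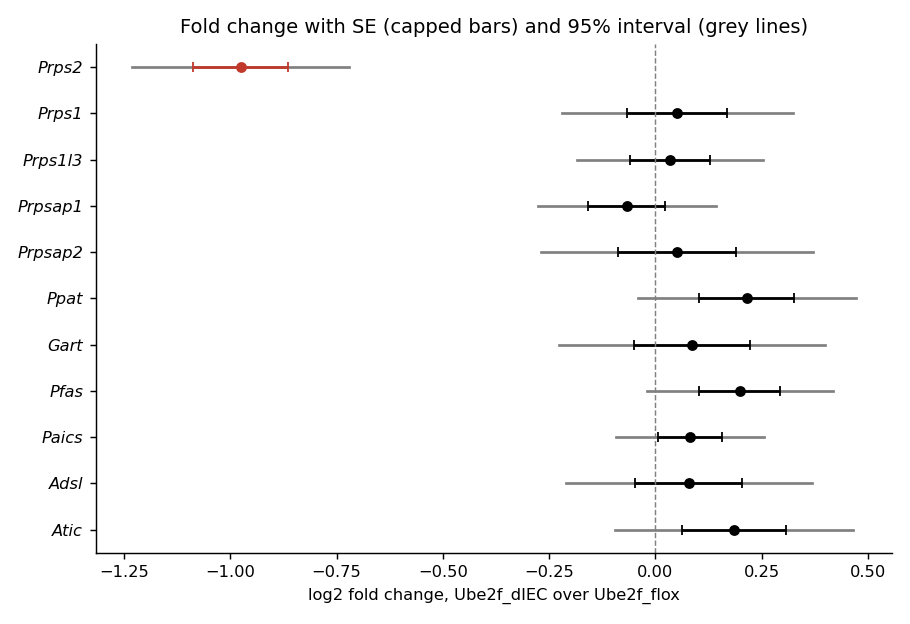
Log2 fold changes (Ube2f_dIEC over Ube2f_flox, x axis) of the 10 genes and of Prps1l3, one gene a row; points are the edgeR estimates, capped bars the SE and grey lines the 95% interval. Prps2 lies at -0.98, and the other genes lie between -0.07 and 0.22 with intervals that include 0.

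Ube2f_flox replicate 1 was the highest of all 6 libraries for Gart and Adsl and the lowest for Paics. The 6 enzyme genes thus did not all vary together between the mice of a genotype. Their mean level, as log2 CPM around the mean of the 6 libraries, was -0.01, 0.07 and 0.16 in Ube2f_dIEC and 0.07, -0.17 and -0.12 in Ube2f_flox replicates 1 to 3. A list of 20 proliferation genes (Mki67, Top2a, Mcm2 and others) was at 0.44, 0.37 and -0.01 in Ube2f_dIEC and 0.25, -0.43 and -0.63 in Ube2f_flox on the same scale. In both lists Ube2f_flox replicates 2 and 3 were the lowest libraries, while the highest library was Ube2f_dIEC replicate 3 for the enzymes and Ube2f_dIEC replicate 1 for the proliferation genes. The part of proliferating cells in the enzyme levels was not tested. Across the 6 libraries, which share their depth and scaling, the 15 pairs of enzyme genes had Pearson correlations from -0.34 (Paics with Adsl) to 0.96 (Gart with Adsl), with a median of 0.52. Prps2 had correlations of -0.67 to -0.09 with the 6 enzyme genes.

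Among 12072 genes of at least 1 CPM outside the set, the pattern of Prps2 over the 6 libraries was most like that of Vta1, Tmsb4x, Hccs, Msl3 and Nrp2 (Pearson r = 0.98 for each). Tmsb4x, Hccs and Msl3 lie near Prps2 on the X chromosome, Vta1, which acts in endosomal sorting, on chromosome 10, and Nrp2, a semaphorin and VEGF receptor, on chromosome 1. The mean of the 6 enzyme genes was most like Heatr1 (r = 0.997), Iars1 (0.995), Bop1 (0.993), Ddx21 (0.991) and Ss18l2 (0.989). Heatr1, Bop1 and Ddx21 encode nucleolar proteins of ribosome synthesis, and Iars1 the cytosolic isoleucyl-tRNA synthetase. Heatr1 was at 37.0, 41.4 and 44.6 CPM in Ube2f_dIEC, against 41.3, 31.5 and 33.5 CPM in Ube2f_flox, so its groups overlap as those of the enzyme genes do. With 6 points and many genes searched, high values of r arise in number, and they are given as a description.

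Prps2 lies in a stretch of the X chromosome where neighbouring genes were lower as well. Within 3 Mb of Prps2 by the table's coordinates, 21 genes had at least 1 CPM, Prps2 included. The 10 genes on the side away from the chromosome end, before Tmsb4x, had log2 fold changes of -0.54 to 0.63, and 0 of them were lower without overlap. The 6 other genes from Tmsb4x onwards to Erdr1x had log2 fold changes of -1.45 to -0.65. All 6 were lower without overlap, where 6.9% of all genes were, and 3 of them (Tmsb4x, Msl3 and Hccs) passed the test. The ends of this stretch were set with these values in view, so the count in it is a description and no test. Over all 21 genes of the 3 Mb window the median was -0.22. The 4 genes beyond Erdr1x had log2 fold changes of -0.95 to -0.10, 1 of them lower without overlap and 0 called (edgeR, Benjamini-Hochberg). Prps1 lies 26.9 Mb away, and the 17 genes of at least 1 CPM within 3 Mb of it had a median log2 fold change of 0.02. The 375 X-linked genes of that level outside the Prps2 window also had a median of 0.02. A difference carried by the chromosome region and a response of Prps2 itself cannot be told apart in this design.

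**Figure D4:**
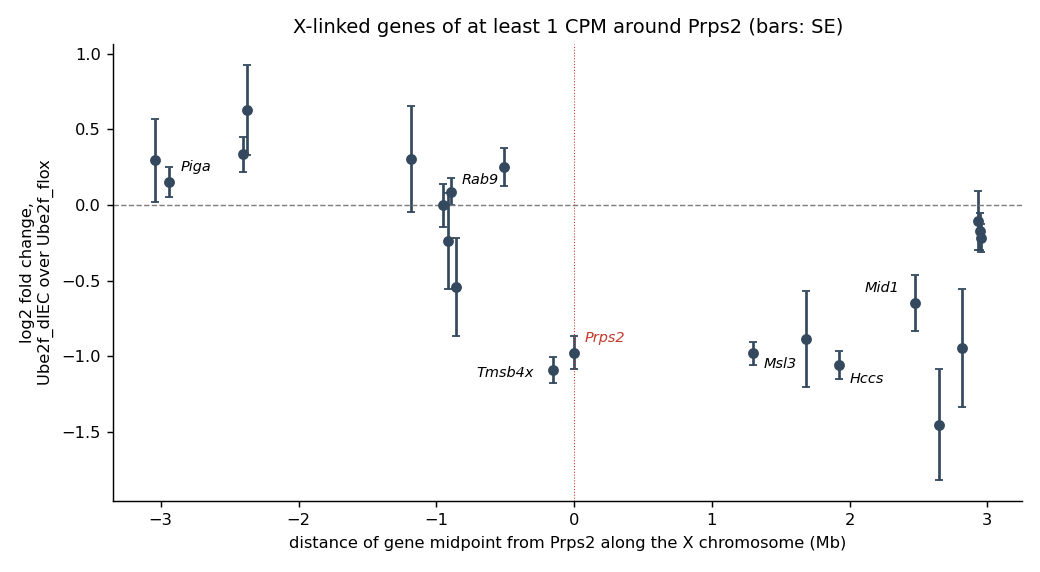
Log2 fold changes (Ube2f_dIEC over Ube2f_flox, y axis, bars SE) of the 21 X-linked genes of at least 1 CPM within 3 Mb of Prps2, by distance of the gene midpoint from Prps2 in Mb. Values before Tmsb4x lie between -0.54 and 0.63, those from Tmsb4x to Erdr1x, Prps2 included, between -1.45 and -0.65, and those of the 4 genes beyond between -0.95 and -0.10.

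In the neighbouring pathways 0 of 67 genes tested were called by edgeR or DESeq2, with a median log2 fold change of 0.05 beside 0.00 over all genes. At an unadjusted p of 0.05, 10 of the 67 passed in edgeR, where 8.18% of all genes did. In the branch from IMP to AMP and GMP, 0 of 11 genes passed (median 0.04). Gmps, the GMP synthetase, was at 45.9 ± 5.85 CPM in Ube2f_dIEC and 39.1 ± 2.55 CPM in Ube2f_flox (SD, n = 3 each), a log2 fold change of 0.23 (SE 0.11). Adss2, the adenylosuccinate synthetase that feeds Adsl, was at 83.0 ± 7.26 CPM in Ube2f_dIEC and 73.0 ± 4.33 CPM in Ube2f_flox (SD, n = 3 each), a log2 fold change of 0.19 (SE 0.09). The AMP deaminase Ampd2 had a log2 fold change of 0.11 (SE 0.08). In salvage and breakdown, 0 of 13 genes passed (median 0.02). The 3 with the smallest p were Lacc1, a purine nucleoside enzyme (0.43, SE 0.19), the kinase Dck (0.26, SE 0.13) and the xanthine oxidoreductase Xdh (-0.36, SE 0.23). Aprt, which spends PRPP to salvage adenine, was at 57.9 ± 0.498 CPM in Ube2f_dIEC and 56.1 ± 1.99 CPM in Ube2f_flox (SD, n = 3 each). Nt5e, the surface AMP nucleotidase, was the 1 related gene called in any setting: it was lower without Ube2f_flox replicate 1 (log2 fold change -0.65, SE 0.09, with an edgeR adjusted p of 0.0407), against -0.37 (SE 0.25) with all libraries. In that setting 0.482% of all genes were called.

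The pentose phosphate route, which supplies ribose 5-phosphate to the synthetases, also had 0 of 11 genes called (median 0.01). H6pd, its endoplasmic reticulum dehydrogenase, was at 0.23 (SE 0.10), G6pdx, the cytosolic dehydrogenase, at 0.16 (SE 0.12), and the transaldolase Taldo1 at -0.14 (SE 0.13) on the log2 fold change scale. Of the other users of PRPP and the pyrimidine route, 0 of 9 passed (median 0.08). Naprt, which uses PRPP to make NAD from nicotinic acid, was at 67.5, 73.6 and 74.6 CPM in Ube2f_dIEC, against 81.0, 95.9 and 88.9 CPM in Ube2f_flox, groups that do not overlap (log2 fold change -0.30, SE 0.08, with an edgeR adjusted p of 0.396). Cad, the first enzyme of pyrimidine synthesis, was at 0.30 (SE 0.12) and Ctps2, a CTP synthetase, at 0.11 (SE 0.09).

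Serine and folate enzymes, which supply carbon units to GART and ATIC, had the highest median of these lists, 0.19 over 17 genes, with 0 called. Of the 17 genes 6 were higher without overlap, where 7.26% of all genes were. Among them were Gcsh, Mthfd2, Aldh1l2, Shmt1 and Mthfd2l. Mthfd2, a mitochondrial folate dehydrogenase, was at 9.24, 10.2 and 8.75 CPM in Ube2f_dIEC, against 7.25, 6.07 and 7.05 CPM in Ube2f_flox (log2 fold change 0.47, SE 0.14, with an edgeR adjusted p of 0.446). Gcsh, the carrier protein of glycine cleavage, was at 37.0, 34.2 and 36.9 CPM in Ube2f_dIEC, against 31.6, 28.9 and 27.3 CPM in Ube2f_flox (0.30, SE 0.09). Of 6 known inducers of these genes 0 passed. Atf4, an activator of serine and folate genes, was at 399, 407 and 404 CPM in Ube2f_dIEC, against 337, 358 and 370 CPM in Ube2f_flox, again without overlap (log2 fold change 0.19, SE 0.07, with an edgeR adjusted p of 0.564). Myc was at 0.09 (SE 0.09) and its partner Max at -0.37 (SE 0.14). The 20 genes of proliferation were also all above 0 on this scale (median 0.50, 0 called by edgeR, 10 at an unadjusted p of 0.05, where 8.18% of all genes were). Of these 20 genes 9 were higher without overlap, where 7.26% of all genes were, and their part in these lists was not tested.

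**Figure D5:**
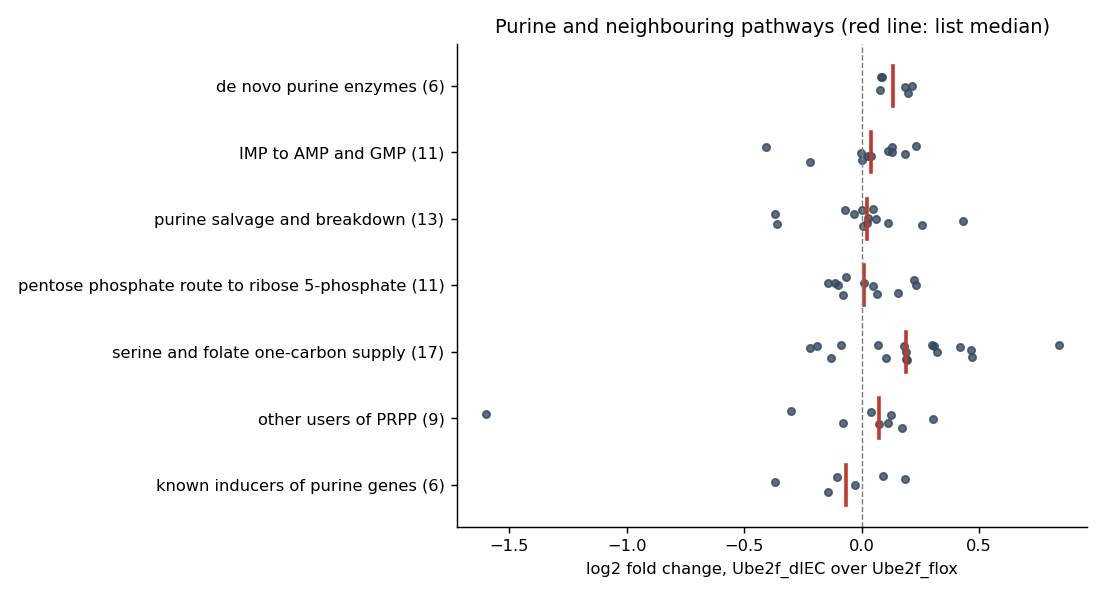
Log2 fold changes (Ube2f_dIEC over Ube2f_flox, x axis) of the 6 de novo enzymes and of the genes tested in each neighbouring list, with the number of genes in brackets; points are genes and red lines list medians. The medians lie between -0.07 and 0.19, the highest being that of the serine and folate genes. The point at -1.60 is Qprt, which had at most 0.247 CPM in any library.

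Compared per length, Prpsap1 had by far the highest transcript level of the 10 genes. It stood at 56.7 ± 5.51 FPKM in Ube2f_dIEC and 53.2 ± 6.79 FPKM in Ube2f_flox (SD, n = 3 each), followed by Paics at 19.0 ± 0.656 FPKM in Ube2f_dIEC and 16.1 ± 0.706 FPKM in Ube2f_flox. Gart, Atic and Prpsap2 followed in Ube2f_dIEC, at 11.7 ± 0.967, 10.7 ± 0.633 and 9.45 ± 1.63 FPKM, and their ranges overlap from each to the next. In Ube2f_flox, Prps2 at 10.4 ± 2.00 FPKM, Gart at 9.94 ± 2.26, Atic at 8.45 ± 1.87, Prpsap2 at 8.17 ± 1.17 and Adsl at 7.15 ± 1.61 FPKM overlap in the same way. Prps2 thus stood at place 7 of 10 in Ube2f_dIEC, next to Prps1, and at place 3 in Ube2f_flox. Ppat and Pfas were the lowest in both genotypes, at 4.56 ± 0.453 and 3.13 ± 0.216 FPKM in Ube2f_dIEC and at 3.52 ± 0.271 and 2.44 ± 0.238 FPKM in Ube2f_flox. Without a TMM factor, the FPKM values of Prps1, Ppat, Pfas and Paics were higher in Ube2f_dIEC without overlap, as were those of 20.2% of all genes. Those of Prps2 were lower without overlap, as were 2.12% of all. On that scale the median log2 fold change of all genes was 0.16 and that of the 6 enzymes 0.30, a distance of the same size as with TMM, and 0 of the 10 genes were called (limma on log2(FPKM + 0.1), which understates changes of low genes; 4 genes called in all).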

How the data were processed

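Messenger RNA libraries of 6 mice were compared. The whole-number counts and the FPKM values (scaled by gene length and library size) are as the authors deposited them, per the file headers. The submitters' processing notes name the build mm10 and the tools HISAT2 2.2.1, StringTie 2.1.6, cutadapt 1.9, edgeR and DESeq2, with no order. How counts were made, and where reads with several matches went: not given in the sources used here. Strand was not stated. Gene coordinates in the table matched GENCODE M21 (GRCm38) for 517 of 26774 shared gene IDs, so printed gene positions and exon lengths are those of GENCODE M21, by gene ID. Promoters are from RefSeq (GRCm38.p6). The table held 0 further sample columns.

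Counts were filtered (filterByExpr), scaled by TMM and tested with edgeR 4.0.16 (quasi-likelihood, 2-sided, genotype only, R 4.3.3), with Benjamini-Hochberg adjustment over 17900 genes and a threshold of 0.05. Standard errors are the log2 fold change over the square root of F, and 95% intervals use the fit's degrees of freedom. DESeq2 1.42.0, limma 3.58.1 (voom, and log2(FPKM + 0.1) with a mean FPKM of at least 0.5), other scalings, no filter, a replicate block and leaving out libraries were alternatives. The tests were checked on simulated counts with changes larger than that of any member. That check does not bear on the small changes of the members other than Prps2. P-values set the genotype difference against the spread between these mice, which includes the Ube2f_dIEC library with Xist. Intervals cover no bias of counting or mapping.

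The members and the lists were chosen with earlier results of these data known. All 10 members were named, with, per neighbouring list, the members called and up to 3 of smallest p, the 5 genes most like Prps2 and most like the enzyme mean (log2 CPM, prior count 2), and genes within 3 Mb of Prps2. Prps1l3, Aprt, Nt5e and the other genes named beyond this rule were chosen with their values in view. Some listed genes are not analysed here, and 1 gene that the rule names is not reported here.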

Additional observations from a re-analysis of the deposited data

How the results depend on the processing

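Of the 16 alternatives 4 kept Prps2 under an adjusted p of 0.05, and its log2 fold change stayed between -1.07 and -0.71 in all 16. The 8 genes called over all genes became 255 with DESeq2, 5 with limma-voom, 18 with library totals and 170 without both replicate 1 libraries (the last chosen after seeing the data), and 0 to 90 when 1 library was left out. Of the settings with 0 calls in edgeR, 1129 genes were at an unadjusted p under 0.05 without Ube2f_dIEC replicate 1, 1127 without Ube2f_dIEC replicate 3 and 1240 without Ube2f_flox replicate 2, against 1464 with all libraries. The count of set members called, 1 (Prps2, on which the set was selected), became 0 with limma-voom, library totals, no filter on low counts or the replicate block, and 0 to 1 when 1 library was left out. Called genes of the related lists numbered 0 to 1 in the leave-outs and 1 without both replicate 1 libraries. The median of the 6 enzyme genes, 0.14, was 0.29 with library totals, where the median of all genes was 0.15, and 0.28 without both replicate 1 libraries. It ran from 0.093 to 0.24 in the leave-outs. None of the 9 genes other than Prps2 was called in any of 145 alternative values, and the sign turned in 10 of them, all with the call absent before and after. These were Prps1 without both replicate 1 libraries (-0.023), Prpsap1 with library totals (0.086) and with limma on log2(FPKM + 0.1) with and without the filter (0.095) and on log2(FPKM + 1) (0.093), Prpsap2 without Ube2f_dIEC replicate 1 (-0.085), Ube2f_flox replicate 3 (-0.027) or both replicate 1 libraries (-0.055), and Gart (-0.026) and Adsl (-0.031) without Ube2f_flox replicate 2. With libraries left out, 1 or both replicate 1, the log2 fold changes ran from -0.023 to 0.113 for Prps1, from -0.085 to 0.14 for Prpsap2, from -0.026 to 0.311 for Gart and from -0.031 to 0.258 for Adsl. The cause of these changes was not tested. Fewer libraries also leave fewer degrees of freedom.

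The genotypes share replicate numbers that the labels do not tie to a litter or day. Same-numbered libraries correlated at 0.08, -0.01 and 0.08 in their deviations from the genotype means. Ube2f_dIEC replicates 1 and 3 correlated best with their own number, and replicate 2 did not. Values this small from so few libraries cannot show or exclude a shared litter or day. With the replicate block 10 genes were called and 0 of the 10 set members. The Prps2 share by counts per kilobase differed between genotypes by -16.7 percentage points, as did the share by FPKM. Both scale by gene length, and library size cancels in a share within a library. A close match follows from that scaling and is no separate check.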
